A study of Mus musculus with 20 samples.

Results

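The class I phosphoinositide 3-kinase (PI3K) and AKT genes Pik3ca, Pik3cb, Pik3cd, Pik3cg, Pik3r1, Pik3r5, Akt1, and Akt2 were followed in the diaphragm of mice 12 weeks after fibers were placed in the pleural cavity. They were chosen by name, as 8 of the 34797 gene names on the array, and 14 of its 55681 probes carry those names. All 14 probes were bright enough to be tested. There were 5 groups of 4 female C57Bl/6 mice, each injected at 8 weeks of age with 100 µL of albumin in saline, and part of each diaphragm was frozen for RNA. The control group received the vehicle alone, SFA and LFA received short and long amosite asbestos fibers (25 µg per mouse), and NTS and NTL received short and long carbon nanotubes (5 µg per mouse). Asbestos and nanotube doses therefore differ, and material cannot be told apart from dose.

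Class I PI3Ks are lipid kinases of the inner face of the plasma membrane. A catalytic p110 subunit, held by a regulatory subunit, phosphorylates PIP2 to PIP3, and PIP3 recruits AKT, which passes growth, survival, and metabolic signals on to mTOR, FOXO factors, and GSK3. Pik3ca (p110α) and Pik3cb (p110β) are found in most tissues, whereas Pik3cd (p110δ) and Pik3cg (p110γ) are mainly leukocyte enzymes. Pik3r1 encodes the p85α regulatory subunit, and Pik3r5 encodes p101, the partner through which G protein-coupled receptors drive p110γ. Of the AKT kinases, Akt1 is broadly expressed and Akt2 is the main form of insulin signaling in muscle and fat. The arrays read RNA, and measure neither lipid kinase activity nor AKT phosphorylation. The paper reports Akt among the pathways activated in the pleurae after long but not short fibers. That result came from an antibody array of phosphorylated proteins on pooled lysates, another measure in another tissue.

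A probe reads 60 bases of a transcript, and the probe decides which stretch of it is seen. The positions of the probes are those of the array files (NCBI37). Pik3ca was read by 1 probe on chromosome 3 (chr3:32360630-32360689, plus strand), within the codons of the kinase domain. Akt2 was read by 4 probes, of which the most upstream (chr7:28418226-28418285, plus strand) also lies in kinase codons. The most upstream of 3 Pik3cd probes (chr4:149024749-149024808, minus strand) ends on the stop codon. These 3 probes are shown because their capitals place them in the reading frame: the codons that open the activation loop of p110α, the codons of the hinge between the lobes of the AKT2 kinase, and the p110δ stop codon.
Pik3ca: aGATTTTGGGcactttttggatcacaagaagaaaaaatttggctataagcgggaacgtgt
Akt2: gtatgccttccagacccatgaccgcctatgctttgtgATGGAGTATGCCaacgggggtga
Pik3cd: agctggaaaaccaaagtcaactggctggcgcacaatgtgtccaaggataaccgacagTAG

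The other probes lie downstream of these or in the other genes. Pik3cg had 2 probes (chr12:32860765-32860824 and chr12:32860979-32861038, minus strand), and Pik3r5 had 1 (chr11:68310906-68310963, plus strand). Pik3cb (chr9:98939114-98939173), Pik3r1 (chr13:102454406-102454465), and Akt1 (chr12:113892079-113892138), all listed on the minus strand, had 1 each, with Akt1 spotted on 2 spots of the array. The brightest Akt2 probe (chr7:28424405-28424464) overlaps the next brightest (chr7:28424412-28424471), so these do not count as independent readings, and the remaining Akt2 probe lies at chr7:28425375-28425434. The brightest Pik3cd probe lies at chr4:149023282-149023341 and the middle one at chr4:149023926-149023985. Where a gene had several probes, the brightest one represents it below unless another is named.

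Values below are log2 signals relative to the 75th percentile of the array, so that 0 is the brightness of that percentile and 1 unit is 2-fold. They compare groups for 1 probe and do not rank genes, because probes differ in brightness for the same amount of RNA. Changes are differences of group means with the standard error of a limma fit over all 20 arrays, and a probe passed when its Benjamini-Hochberg adjusted p over all 36931 tested probes was under 0.05. The median change of all tested probes was −0.28 in LFA and −0.25 in NTL against control, which is the level against which a member's change should be read, and it was −0.10 in SFA and −0.06 in NTS. Every comparison with control used the same 4 control arrays, so these comparisons are not independent of each other.

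After long fibers the members tied to leukocytes stood higher than in control, Pik3cg and Pik3r5 in both groups and Pik3cd in NTL, and Pik3ca, Pik3cb, Pik3r1, Akt1, and Akt2 did not pass the test. In LFA against control, 3 of the 14 probes passed, all higher (2.28% of all tested probes passed as higher). They were both Pik3cg probes and Pik3r5. In NTL against control, 4 of the 14 passed, all higher (background 3.8%), and these were the same 3 probes with the brightest Pik3cd probe. All of these differences were at least 2-fold, against a background of 2.22% of probes higher by that rule in LFA and 3.63% in NTL. The arrays of LFA lay above all control arrays for 2 of the 14 probes (4.59% of all probes) and those of NTL for 3 (6.34%). None of the 14 probes passed as lower in either comparison, where 2.06% of all probes did in LFA and 4.04% in NTL. The median change of the 14 probes was −0.02 in LFA and −0.02 in NTL.

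**Figure D1:**
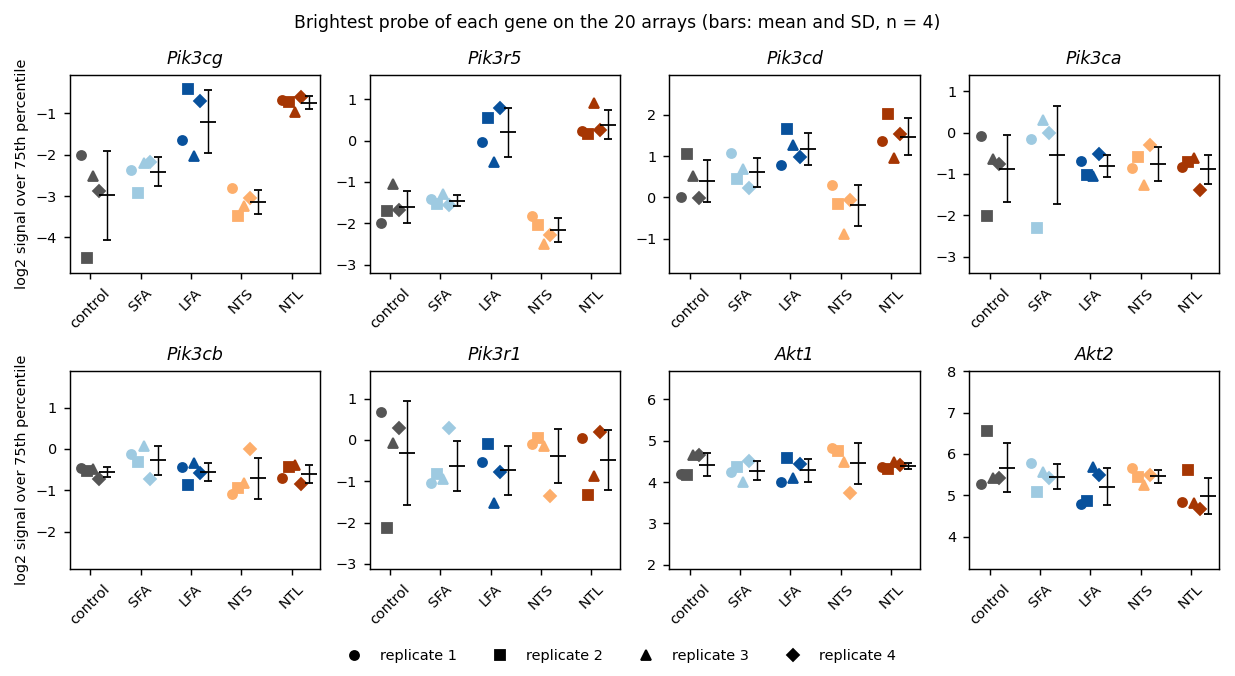
Log2 signal relative to the array's 75th percentile (vertical axis) of the brightest probe of each member in the 20 mice, by group, with points for mice and bars for the mean and SD of 4. Pik3cg and Pik3r5 stand higher in LFA and NTL than in control, SFA, and NTS, whereas the points of Pik3ca, Pik3cb, Pik3r1, and Akt1 overlap in all groups.

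Pik3cg, the p110γ catalytic subunit, was at −2.02, −4.51, −2.51, and −2.88 in control replicates 1 to 4. In LFA it was at −1.65, −0.41, −2.03, and −0.71, and in NTL at −0.68, −0.73, −0.96, and −0.59. All 4 NTL mice lay above every control mouse, whereas LFA replicate 3 lay just under control replicate 1, so LFA and control touch. The short fiber groups stayed in the range of the controls, at −2.36, −2.92, −2.20, and −2.17 in SFA and −2.80, −3.48, −3.25, and −3.06 in NTS. The probe was well above background on 19 of the 20 arrays, and the exception was control replicate 2, the lowest value. That array also had the lowest share of spots well above background (53.0%) and the lowest 75th percentile (294) of the 20.

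The rise of Pik3cg was 1.78 ± 0.43 in LFA (3.44-fold, adjusted p = 0.0290) and 2.24 ± 0.43 in NTL (4.73-fold, adjusted p = 0.00424). Its changes were 0.57 in SFA (adjusted p = 0.999) and −0.17 in NTS, neither of which passed. The second Pik3cg probe, on another stretch of the same transcript, gave 1.81 ± 0.47 in LFA (adjusted p = 0.0377) and 2.31 ± 0.47 in NTL (adjusted p = 0.00603). Of 29 alternative settings, 15 kept its LFA call and all 29 its NTL call. The LFA call was lost, among others, with slide as a block (1.81, adjusted p = 0.0607) and with normexp background correction (0.52, adjusted p = 0.115), and without control replicate 1, 2, or 4, LFA replicate 1, 2, or 4, or NTL replicate 1 or 4. By that probe the control values were −4.06, −6.17, −3.79, and −4.69, and the LFA values were −3.21, −2.08, −3.66, and −2.52, with no overlap between the groups. It was not well above background in control replicate 2 and NTS replicate 2. In SFA it gave 1.15 ± 0.47 with an unadjusted p = 0.0249 that did not pass after adjustment (0.999).

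How far the LFA difference of Pik3cg stood from 0 depended on single mice. It was 1.27 (adjusted p = 0.0569) without control replicate 2, and the adjusted p was 0.0559 without control replicate 4, 0.0936 without LFA replicate 2, 0.0823 without LFA replicate 4, and 0.121 when only the LFA and control arrays were fitted. Of 29 alternative settings with a test for this probe, 24 kept the LFA call and all 29 kept the NTL call, and the change spanned 1.03 to 2.10 in LFA and 1.38 to 2.56 in NTL. The lowest of each came with normexp background correction, which models the background instead of using the processed signal.

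Pik3r5, the p101 partner of p110γ, separated long fibers from control mouse by mouse. Control mice had values of −1.99, −1.70, −1.05, and −1.68, LFA mice −0.04, 0.55, −0.52, and 0.80, and NTL mice 0.23, 0.15, 0.90, and 0.25. Every long-fiber mouse was above every control mouse. The values after short fibers were −1.42, −1.53, −1.29, and −1.57 in SFA, inside the control range, and −1.83, −2.05, −2.50, and −2.29 in NTS, in the lower part of it or below it.

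Against control, Pik3r5 rose by 1.80 ± 0.29 in LFA (3.49-fold, adjusted p = 0.00238) and by 1.99 ± 0.29 in NTL (3.97-fold, adjusted p = 0.000454). It was 0.15 higher in SFA (adjusted p = 0.999) and 0.56 lower on the log2 scale in NTS, a change of −0.56 with an unadjusted p = 0.0668, and neither passed. Across all 30 alternative settings with a test, the LFA change stayed between 1.48 and 2.04 and the NTL change between 1.71 and 2.17, and each setting kept the call. On each of the 3 slides that held both groups, the LFA difference was 1.82, 1.81, and 1.60. For NTL, which shared 2 slides with control, it was 2.08 and 1.49.

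Pik3cd, the p110δ catalytic subunit of lymphocytes and myeloid cells, moved less. By its brightest probe it was at 0.01, 1.05, 0.52, and −0.01 in control, at 0.79, 1.65, 1.26, and 0.97 in LFA, and at 1.37, 2.03, 0.96, and 1.54 in NTL. Control replicate 2 lay within both long-fiber ranges, so neither group was clear of control. SFA stood at 1.07, 0.45, 0.68, and 0.23, across the control range, and NTS at 0.31, −0.16, −0.88, and −0.05, the lowest of the 5 groups.

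Its rise in NTL was 1.08 ± 0.32 (2.11-fold, adjusted p = 0.0466), and the LFA change of 0.78 ± 0.32 did not pass (adjusted p = 0.156). The NTL call was a narrow one, since 12 of 30 alternative settings kept it, with changes from 0.89 to 1.30 and an adjusted p of up to 0.133. It was lost without control replicate 1, 3, or 4, NTL replicate 1, 2, or 4, SFA replicate 2, 3, or 4, LFA replicate 1, 3, or 4, or NTS replicate 2. With slide as a block it was 0.96 (adjusted p = 0.130), and within the 2 shared slides the difference was 0.83 and 0.99. By the unequal-variance test over all 5 groups that the study's methods name, this probe did not pass (adjusted p = 0.0577). The middle probe changed by 1.04 in NTL (adjusted p = 0.161) and the stop codon probe by 1.13 ± 1.05 (adjusted p = 0.563). The stop codon probe was well above background on 17 arrays and ranged from −6.52 to −1.35.

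**Figure D2:**
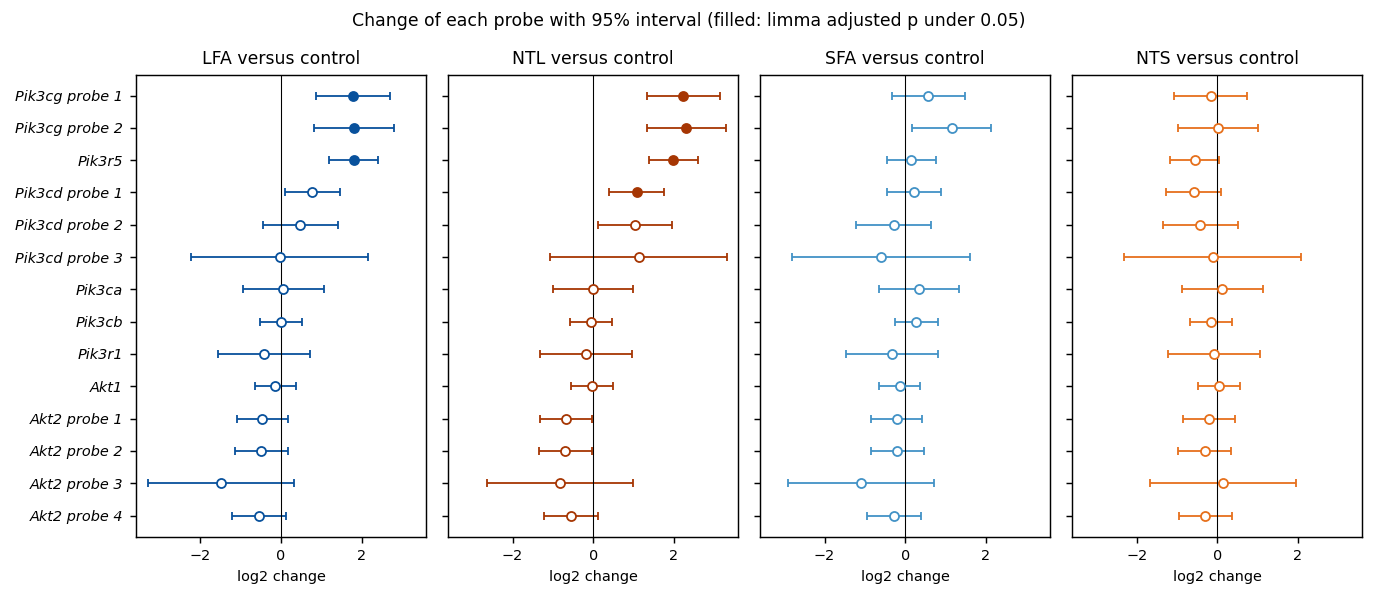
Log2 change of each of the 14 member probes against control (horizontal axis) with its 95% confidence interval, in 1 panel for each fiber group; filled points passed the test. The filled points are both Pik3cg probes and Pik3r5 in LFA, the same with Pik3cd in NTL, and there are none in SFA or NTS.

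The widely expressed catalytic subunits did not shift detectably. Pik3ca was at −0.08, −2.01, −0.65, and −0.76 in control, between −1.05 and −0.51 in LFA, and between −1.39 and −0.61 in NTL. Its change was 0.06 in LFA, with a 95% interval from −0.94 to 1.06, and −0.01 in NTL (−1.01 to 0.99), so 2-fold changes lie at the edge of what these mice could show. Pik3cb had tighter controls, from −0.73 to −0.46, with LFA mice from −0.86 to −0.34 and NTL mice from −0.86 to −0.40. The interval of its change spanned −0.53 to 0.52 in LFA and went from −0.57 to 0.48 in NTL, both short of a 2-fold change in either direction.

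Pik3r1, whose p85α subunit stabilizes p110α, p110β, and p110δ, varied widely within groups. Control mice ranged from −2.14 to 0.68, LFA mice from −1.53 to −0.11, and NTL mice from −1.33 to 0.20. The groups overlapped throughout, with changes of −0.43 ± 0.54 in LFA and −0.18 ± 0.54 in NTL (adjusted p = 0.649 and 0.886).

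Akt1 was tightly grouped in NTL, at 4.36, 4.32, 4.49, and 4.41, inside the control range of 4.16 to 4.66. It changed by −0.14 ± 0.25 in LFA (95% interval −0.66 to 0.38) and by −0.02 ± 0.25 in NTL (−0.54 to 0.49). Akt2 was at 5.28, 6.55, 5.42, and 5.41 in control and at 4.84, 5.62, 4.82, and 4.66 in NTL. NTL replicate 2 lay among the controls while the other NTL mice were below all of them. The Akt2 change of −0.68 ± 0.31 in NTL had an unadjusted p = 0.0396 and did not pass (adjusted p = 0.187), nor did −0.46 ± 0.31 in LFA (adjusted p = 0.367). The other 3 Akt2 probes also gave negative NTL changes, at −0.69, −0.82, and −0.55, and none passed. With quantile normalization, which sets the whole distribution of each array alike, the Akt2 change in NTL was −0.21 and that of Akt1 0.34, again without passing (adjusted p = 0.610 and 0.599).

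After short fibers no member probe passed. In SFA against control, limma called 0 of 14 probes (0% of all tested), with 1 at an unadjusted p under 0.05 (all probes, 2.28%), the second Pik3cg probe. The study's methods name a test of unequal variances with a 2-fold minimum. Its p is over all 5 groups, LFA and NTL included, so it does not test SFA against control. By it and a 2-fold difference from control, 1 member probe was counted in SFA (0.487% of all probes), again the second Pik3cg probe. In NTS against control the count was 0 (0% of all tested), with 0 at an unadjusted p under 0.05 (all probes, 3.49%) and 0 by the methods' test (0.525%). The median change of the 14 probes was −0.17 in SFA and −0.16 in NTS.

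Fiber length was compared within each material. Per the paper, the short nanotubes were a commercial product and the long ones came from a university laboratory. For nanotubes, length therefore cannot be told apart from source. The short asbestos was ground from fibers of the same batch as the long. In LFA against SFA, 1 of 14 probes passed as higher (background 1.03%), namely Pik3r5, by 1.65 ± 0.29 (3.13-fold, adjusted p = 0.00734). The LFA and SFA arrays did not overlap for 2 member probes with LFA higher (3.15% of all probes), Pik3r5 and the brightest Pik3cg probe, of which the latter differed by 1.21 ± 0.43 without passing (adjusted p = 0.253). When only the LFA and SFA arrays were fitted, the adjusted p of Pik3r5 was 0.0741. Within the 2 slides that held both groups, the Pik3r5 difference was 1.43 and 1.97.

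In NTL against NTS, 5 of 14 probes passed as higher (background 5.22%), all of them at least 2-fold (4.89%), and these 5 also did not overlap between the groups (7.6% of all probes). Pik3r5 was 2.55 ± 0.29 higher in NTL (5.86-fold, adjusted p = 3.9e-05). The Pik3cg probes were 2.41 ± 0.43 (5.30-fold, adjusted p = 0.00190) and 2.29 ± 0.47 (adjusted p = 0.00504) higher. Of the Pik3cd probes, the brightest was 1.67 ± 0.32 higher (3.17-fold, adjusted p = 0.00319) and the middle one 1.46 ± 0.44 (adjusted p = 0.0471), a call that 11 of 30 alternative settings kept.

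NTL and NTS shared 1 slide of 3, with 1 NTL and 2 NTS arrays on it. On that slide the difference was 2.17 for Pik3r5, 2.46 for Pik3cg, and 1.29 for Pik3cd. With slide as a block 1 member probe passed, Pik3r5 at 2.25 (adjusted p = 0.00280), while Pik3cg was at 2.04 (adjusted p = 0.0507) and Pik3cd at 1.45 (adjusted p = 0.0636).

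**Figure D3:**
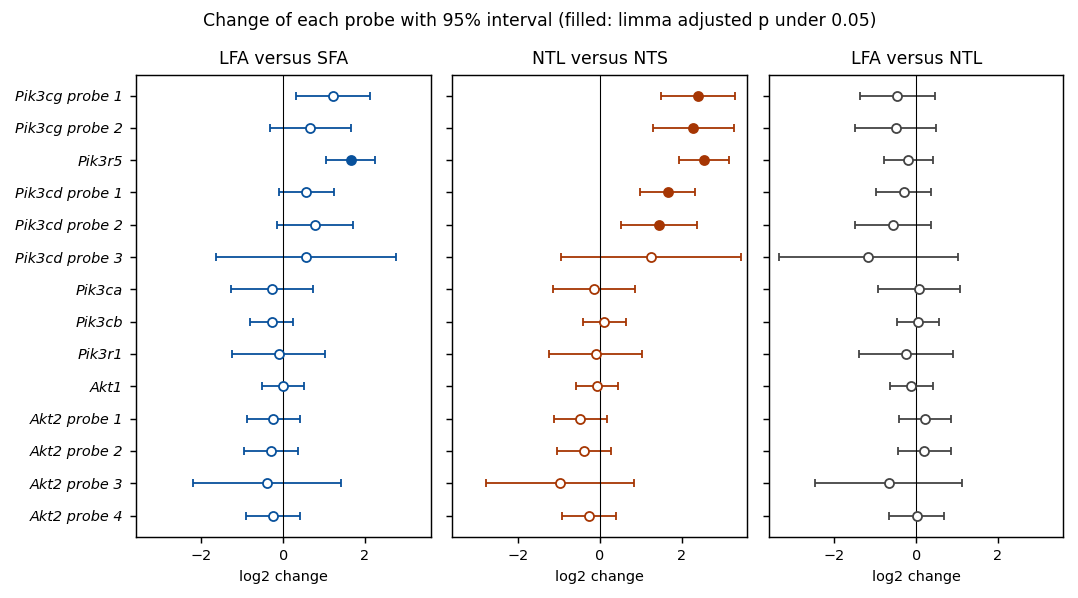
Log2 difference of each of the 14 member probes (horizontal axis) with its 95% confidence interval for LFA versus SFA, NTL versus NTS, and LFA versus NTL; filled points passed the test. Pik3r5 is filled for both materials, Pik3cg and 2 Pik3cd probes for the nanotubes, and no probe in LFA versus NTL.

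The materials were compared at equal length. In LFA against NTL limma called 0 of 14 probes (0% of all tested), with 0 at an unadjusted p under 0.05 (all probes, 1.55%). The 95% interval of the LFA minus NTL difference ran from −1.37 to 0.45 for Pik3cg, from −0.98 to 0.37 for Pik3cd, and from −0.79 to 0.42 for Pik3r5, so the long fibers could still differ by about that much. In SFA against NTS it called 0 of 14 (0% of all tested), with 3 at an unadjusted p under 0.05 (all probes, 5.82%). These 3 were higher in SFA: the second Pik3cg probe by 1.13, Pik3cd by 0.80, and Pik3r5 by 0.72 (adjusted p = 0.844 each). For Pik3r5 the SFA mice all lay above the NTS mice, as for 1.24% of all probes.

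The effect of length (long minus short) in asbestos minus that in nanotubes was tested as a contrast of its own. In nanotubes this effect includes the different source of the fibers. limma called 0 of 14 member probes (0% of all tested), and 3 had an unadjusted p under 0.05 (all probes, 3.45%). They were the second Pik3cg probe at −1.63, Pik3cd at −1.11, and Pik3r5 at −0.90, and the negative sign means the smaller length difference in asbestos. Since none passed after adjustment, a difference between the materials in the effect of length was not shown.

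By group mean of the brightest probe, Pik3cg, Pik3cd, and Pik3r5 had the same order, with NTL first, then LFA, SFA, control, and NTS. The Pik3cg means were −0.74 ± 0.16, −1.20 ± 0.77, −2.41 ± 0.35, −2.98 ± 1.08, and −3.15 ± 0.29 (SD, n = 4 each) in that order. For Pik3r5 they were 0.38 ± 0.35, 0.20 ± 0.59, −1.45 ± 0.12, −1.61 ± 0.40, and −2.17 ± 0.29. Pik3cd followed with 1.47 ± 0.44, 1.17 ± 0.38, 0.61 ± 0.36, 0.39 ± 0.50, and −0.19 ± 0.50. Of the neighbors in these orders, LFA and SFA differed beyond the test's threshold for Pik3r5, and no other neighboring pair passed for any of the 3 genes. Other probes gave another order: control (−4.68) lay with NTS (−4.66) for the second Pik3cg probe, above SFA for the middle Pik3cd probe (−0.98 and −1.27), and above LFA for the stop codon probe (−3.55 and −3.58).

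Whether 1 subunit moved more than another in the same mice was asked with 14 pair tests, each on the difference of the log2 values of 2 members per mouse and each an exact two-sided permutation test of 4 against 4, which cannot go below p = 0.0286. Pik3cg moved by 1.73 more than Pik3ca in LFA and by 2.25 more in NTL, both at that smallest p (adjusted p = 0.1 over the 14). Against Pik3cb, Pik3cg moved by 1.78 more in LFA (exact p = 0.0571) and 2.29 more in NTL, the latter at the smallest p. Pik3cd moved by 0.72 more than Pik3ca in LFA and 1.09 in NTL (exact p = 0.4 and 0.2), and by 0.78 and 1.12 more than Pik3cb (exact p = 0.0857 and 0.0571). Pik3r5 moved by 2.23 more than Pik3r1 in LFA, also at the smallest p, and by 2.17 more in NTL (exact p = 0.0857). Between Pik3r5 and Pik3cg the difference of changes was 0.02 in LFA and −0.25 in NTL (exact p = 0.943 and 0.714). Akt2 minus Akt1 changed by −0.32 in LFA and −0.66 in NTL (exact p = 0.6 and 0.2). No pair passed after adjustment. With a smallest p of 0.0286 over 14 tests, a pair could pass only if most of the 14 reached it. The adjusted result therefore decides little.

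The rest of the pathway was followed in 52 further genes in 7 lists, each by its brightest probe, and all were tested. In LFA 3 rose and 1 fell, beside 2.28% and 2.06% of all tested probes, and in NTL 4 rose and 3 fell, beside 3.8% and 4.04%. The falls were therefore near the share of all probes, and the remainder did not pass. In SFA and NTS 0 passed by limma. The median change of the 52 was −0.20 in LFA and −0.21 in NTL, near that of all tested probes.

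The other class I regulatory subunits, Pik3r2 (p85β), Pik3r3 (p55γ), and Pik3r6 (p84, the other partner of p110γ), did not pass in any fiber group. Pik3r6 changed by 0.26 in LFA and 0.36 in NTL, with a 95% interval in NTL from −0.15 to 0.86, whereas the interval of Pik3r5 in NTL began at 1.38. Of the 5 class II and III PI3K genes 0 passed in LFA and in NTL, as did 0 of the 11 genes of AKT activation and the mTOR complexes, whose median change was −0.46 in each.

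Leukocyte effectors that bind PIP3 or act with it held most of the increases. Of 7 genes, 3 rose in LFA and 3 in NTL, with list medians of 0.57 and 0.87. Vav1, a guanine nucleotide exchange factor of leukocytes, rose by 1.43 in LFA (adjusted p = 0.0392) and 1.76 in NTL (adjusted p = 0.00791). Btk, a Tec family kinase of B cells and myeloid cells, rose by 1.40 (adjusted p = 0.0266) and 1.55 (adjusted p = 0.00867). Plcg2, the phospholipase C that acts after these kinases, rose by 1.19 (adjusted p = 0.0426) and 1.39 (adjusted p = 0.0134). Among 8 opposing phosphatases and inhibitors, Inpp5d, which encodes the leukocyte 5-phosphatase SHIP1, rose in NTL by 1.40 (adjusted p = 0.00923) and was 1.02 higher in LFA without passing (adjusted p = 0.0617).

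The decreases were in Irs2, Eif4ebp1, and Foxo1. Irs2, an adaptor that couples the insulin receptor to PI3K, was the 1 of 7 receptors and adaptors to fall in NTL, by −1.61 (adjusted p = 0.00181), and in LFA it was at −0.93 (adjusted p = 0.0603). Its values lay between 3.55 and 4.63 in control, 2.90 and 3.52 in LFA, and 2.35 and 2.84 in NTL. Of 10 AKT and mTOR targets, Eif4ebp1, the translation repressor 4E-BP1, fell by −0.82 in LFA (adjusted p = 0.0244) and −0.97 in NTL (adjusted p = 0.00521), and Foxo1, a transcription factor that AKT keeps out of the nucleus, fell in NTL by −0.77 (adjusted p = 0.0219) and was at −0.68 in LFA (adjusted p = 0.0563).

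**Figure D4:**
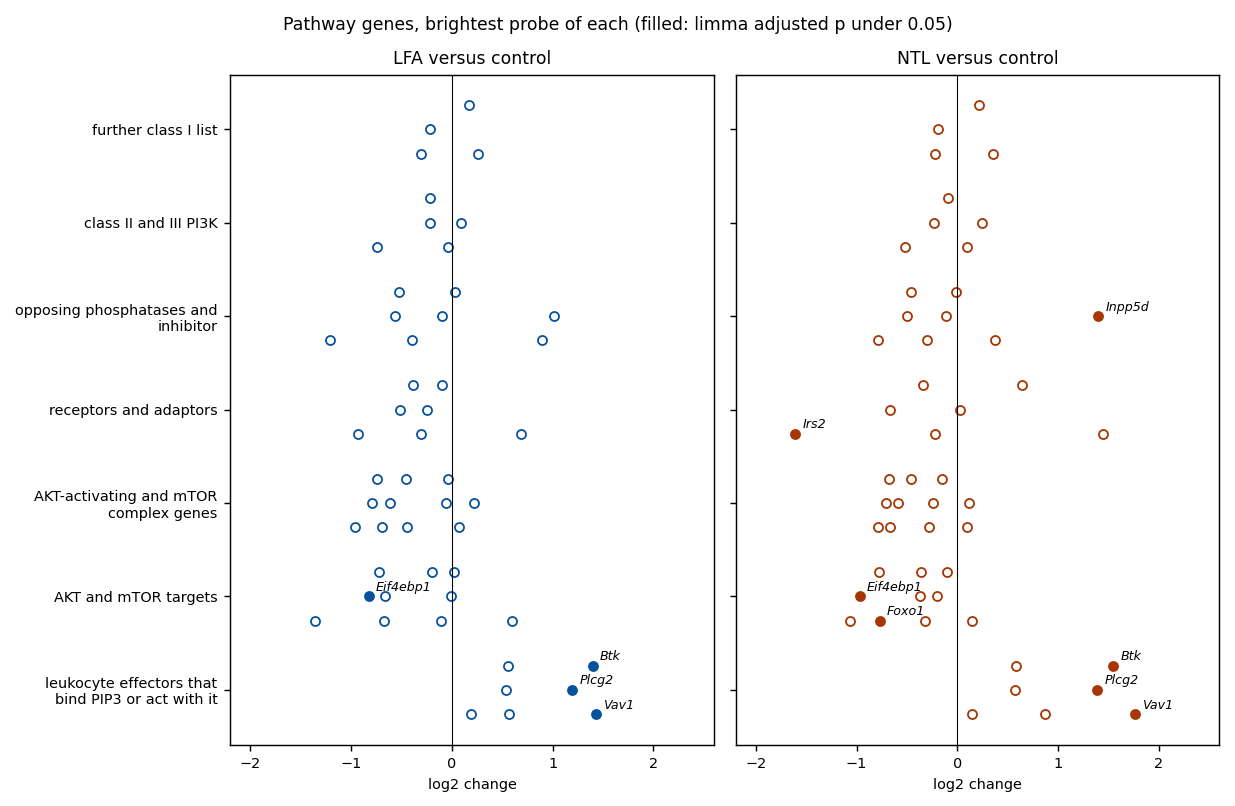
Log2 change against control of the 52 further pathway genes, grouped by list, in LFA and NTL (horizontal axis); filled points passed the test. Btk, Vav1, and Plcg2 stand to the right in both groups, with Inpp5d in NTL, and Eif4ebp1 stands to the left in both, with Irs2 and Foxo1 in NTL.

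Summed signals of some cell type markers also differed between control and the long-fiber groups. The summed signal of 6 leukocyte markers, each in multiples of the array's 75th percentile, was 31.6 to 68.5 in control, 38.4 to 59.7 in SFA, and 28.2 to 58.2 in NTS. It was 65.3 to 153 in LFA and 108 to 133 in NTL. The sum of 8 macrophage markers was 69.3 to 110 in control, 124 to 207 in LFA, and 174 to 227 in NTL, and SFA (71.8 to 135) and NTS (63.3 to 128) reached above the lowest LFA array. All 6 skeletal muscle markers of the labeled tissue were above background on every array. Their sum was 2335 to 2992 in control, 1228 to 1691 in LFA, and 1203 to 1429 in NTL. Muscle signal was also lower in SFA, at 1885, 2078, 1853, and 2428, where replicates 1 to 3 lay below every control. In NTS it ran from 1513 to 3533. In bulk RNA, more cells of a type and more RNA per cell cannot be told apart, and the part of cell composition in the Pik3cg, Pik3r5, and Pik3cd results was not tested.

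By single markers, 2 of 6 leukocyte genes passed as higher in LFA and 4 of 6 in NTL, as did 6 of 8 macrophage genes in each, with Cd68 higher by 1.95 and 2.39. Of the T cell markers 0 of 5 passed in LFA and 1 of 5 in NTL, and 1 and 4 of 5 fibroblast and matrix genes passed as higher. Of 6 muscle genes 1 fell in LFA and 3 in NTL, and of 4 adipocyte genes 1 and 2 fell. Of all tested probes 2.28% passed as higher and 2.06% as lower in LFA, and 3.8% and 4.04% in NTL. The lists of B cells (4 genes), granulocytes (6), mesothelium (5), endothelium (4), and liver (5) had 0 passing in both. The liver sum ranged from 0.957 to 3083 over the 20 arrays and was spread within every group, from 2.02 to 214 in control and from 2.40 to 3083 in NTS. It exceeded the muscle sum in NTS replicate 3 (3083 against 2713), NTS replicate 4 (2584 against 1513), and LFA replicate 3 (1765 against 1573). It was also 1270 in SFA replicate 2 and 1135 in LFA replicate 1. These arrays thus held liver signal beside the labeled diaphragm, and its part in the member results was not tested.

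For each member that passed in LFA or NTL, the genes nearest in pattern were sought over the 20 arrays among 14182 other gene names, by the root mean square of the difference between the 2 profiles after each was set about its own mean (log2). Nearest to Pik3r5 were Tbxas1 (0.25), which encodes thromboxane A synthase, Itgb2 (0.29), the β2 integrin chain of leukocytes, and Plaur (0.32), the urokinase receptor, against a spread of 1.08 for Pik3r5 itself. Pik3cg, with a spread of 1.11, had Gria3 (0.37), a glutamate receptor subunit, Il1r1 (0.43), the interleukin-1 receptor, and Ncf1 (0.43), a subunit of the phagocyte NADPH oxidase. For Pik3cd the nearest were Fgd3 (0.19), Cerk (0.20), a ceramide kinase, and Ubash3b (0.23), against its own spread of 0.70.

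Probes of the same transcript did not keep a fixed distance from each other over the arrays. An index of each array was computed as the mean difference between an upstream and a downstream probe of the same transcript, over 1809 transcripts where these were separated by 1000 bases or more, with the members left out. A lower index means less signal upstream, far from the 3′ end from which labeling starts. It was −1.44 in control replicate 2 and −0.87 to −0.68 in the other controls. SFA spanned −1.52 to −0.72, LFA −1.47 to −0.95, NTS −1.32 to −0.62, and NTL −1.42 to −0.84, so the groups overlapped.

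Within Akt2, the hinge probe printed above minus the brightest probe was −8.15 in control replicate 2 and −3.39 in control replicate 4, the lowest and the highest of the 20 arrays. The hinge probe itself was at 1.05, −1.59, 1.21, and 2.03 in control and at −0.34, 0.08, −1.86, and −1.15 in LFA, and its LFA change of −1.49 ± 0.86 did not pass (adjusted p = 0.297). With the index as a covariate, chosen after seeing the data, that change was −0.57 (adjusted p = 0.138). Under the covariate Pik3r5 was at 1.84 in LFA and 2.01 in NTL, and Pik3cg at 1.997 and 2.34, all still passing. All 3 Pik3cd probes passed in NTL under it, at 0.99, 1.22, and 1.64 (adjusted p = 0.0174, 0.00404, and 0.00867), and the brightest Akt2 probe passed as lower at −0.79 (adjusted p = 0.0212). The covariate fit called more probes throughout, with 3.81% of all tested probes higher and 8.1% lower in LFA and 6.17% and 11.8% in NTL.

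**Figure D5:**
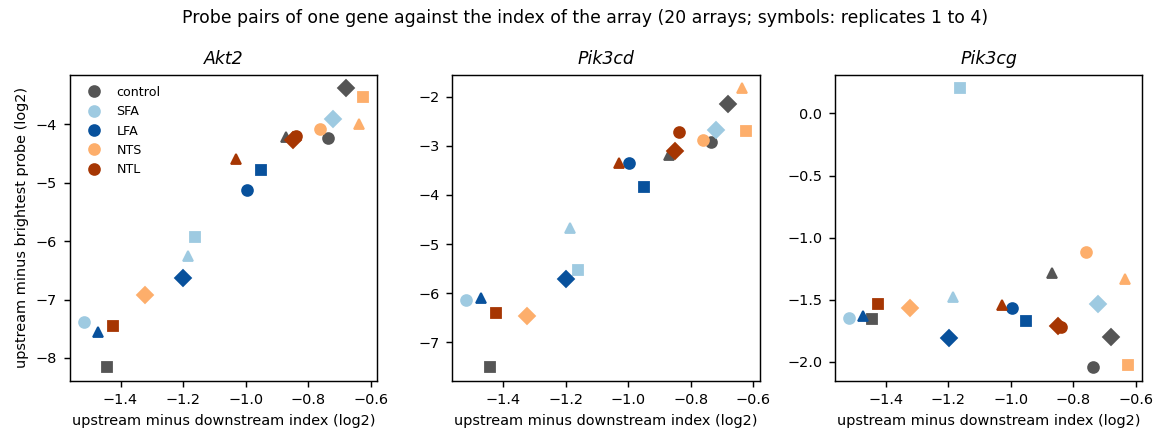
Difference between the upstream and the downstream probe of Akt2, Pik3cd, and Pik3cg in log2 units (vertical axis) against the upstream minus downstream index of the array (horizontal axis), with 1 point per array colored by group. For Akt2, control replicate 2 lies lowest at −8.15 (index −1.44) and control replicate 4 highest at −3.39 (index −0.68).

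The RefSeq promoters of the members (GRCm38.p6) were read as the 250 bases before each start. All 8 members were found, with 16 starts. The first listed promoters of the 3 members that passed are printed to show the sequence upstream of these genes, with matches in capitals. The letters searched, on both strands, were GAGGAA (the core of a PU.1 site) and AGGAAG (an ETS core), which can share 5 bases, and GGGCGG (a GC box). Pik3cd lies at chr4:149698709-149698958 (minus), Pik3cg at chr12:32208660-32208909 (minus), and Pik3r5 at chr11:68431875-68432124 (plus).
Pik3cd: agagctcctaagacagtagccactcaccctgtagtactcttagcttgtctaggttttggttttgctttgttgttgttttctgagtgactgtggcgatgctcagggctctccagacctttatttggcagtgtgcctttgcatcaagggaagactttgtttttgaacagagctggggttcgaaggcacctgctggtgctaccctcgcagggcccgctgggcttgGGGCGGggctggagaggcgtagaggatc
Pik3cg: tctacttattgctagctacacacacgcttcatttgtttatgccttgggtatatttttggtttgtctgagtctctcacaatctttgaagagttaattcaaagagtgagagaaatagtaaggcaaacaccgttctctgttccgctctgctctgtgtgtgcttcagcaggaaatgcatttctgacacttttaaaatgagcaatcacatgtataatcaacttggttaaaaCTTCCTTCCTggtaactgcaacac
Pik3r5: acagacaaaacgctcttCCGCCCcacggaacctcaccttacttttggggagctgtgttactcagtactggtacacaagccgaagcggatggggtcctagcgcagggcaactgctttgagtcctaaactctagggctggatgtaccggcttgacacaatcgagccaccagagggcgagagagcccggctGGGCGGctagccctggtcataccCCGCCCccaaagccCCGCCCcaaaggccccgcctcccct

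The Pik3r5 promoter held 4 GC boxes and the Pik3cd promoter 1, whereas the Pik3cg promoter held 0. The printed Pik3cg promoter held 2 overlapping matches to AGGAAG, and the promoter of its second start held 4 of these and 2 of GAGGAA. The 2 promoters overlap (the second lies at chr12:32208471-32208720), and the 2 printed matches are among those 4. Over any of their starts, GGGCGG was found in 7 of the 8 members, GAGGAA in 2, and AGGAAG in 2. Counted in the same way, 35.4% of 27025 RefSeq genes held GGGCGG over any start, 25.9% GAGGAA, and 32.3% AGGAAG, and of 32851 single promoters of this length 32.7%, 23.3%, and 29.5% did. These are matches of letters and were not tested as binding sites.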

How the data were processed

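RNA from 20 diaphragms, 1 array per mouse, was labeled with Cy3 and hybridized by the authors to 60K mouse arrays. Per the file headers, Agilent Feature Extraction 10.7.3.1 made the deposited intensity of each spot, with the background subtracted and trends across the array removed, and marked spots that were well above background, saturated, or outliers; the deposited raw spot and background intensities served an alternative. The authors also deposited GeneSpring-normalized log2 values, 1 mean per group, which give values but no test; their baseline is not given in the sources used here. Gene names came from the scanner files.

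Outlier spots (92 to 204 per array) were left out, 0 spots were saturated, and 59305 spots were averaged into 55681 probes. The log2 intensity minus the array's 75th percentile was tested with limma 3.58.1 (R 4.3.3, the data.table package, version 1.17.8) in 1 fit with 5 group means, for the 36931 probes well above background on at least 4 of 20 arrays (25021 on all 20). Between 53.0% and 68.1% of spots were well above background, and the 75th percentile ran from 294 to 996. The number of arrays limits the precision. The p-values measure the spread between arrays of different mice, in which mouse, dissection, and array handling cannot be told apart. Arrays correlated at 0.865 to 0.986, so none was an exact copy of another. Python 3.11.15 (numpy 2.4.6, pandas 2.3.3, matplotlib 3.10.9) read the files and drew the figures. The fit was tested on simulated data.

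The members and lists were chosen with earlier results of these data known. The brightest probe stands for a gene. Further genes named are those of 7 pathway lists (52 genes) that passed in LFA or NTL against control, the 3 genes nearest in pattern to each member that passed, and genes of 11 marker lists; Pik3r2, Pik3r3, Pik3r6, and Cd68 were named outside that rule, after their values were seen. Some genes of the lists are counted but not reported here by name. Alternatives were quantile normalization, normexp background correction with an offset of 50, testing every probe, testing those above background on all arrays, blocks for slide (3), scan day (2), and replicate number, fits of only the groups compared, the methods' test of unequal variances, and each array left out. The index covariate and leaving out control replicate 2 with NTS replicate 4 were chosen after seeing the data.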

Additional observations from a re-analysis of the deposited data

Results flagged for a closer look

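In 105 sets of 4 mice (a probe in a group), 10 held a mouse far from the other 3 by Dixon's criterion at 95%, or 9.52%, where chance gives about 1 in 20. Among members, the Pik3cd stop codon probe was at −6.52 in NTS replicate 4 (the others −2.85 to −2.57). Pik3r1 was at 0.28 in SFA replicate 4 (others −1.05 to −0.82) and at −1.35 in NTS replicate 4 (others −0.14 to 0.04). Pik3r5 was at 0.90 in NTL replicate 3 (others 0.15 to 0.25). Control replicate 2 stood apart at 6.55 on the brightest Akt2 probe (others 5.28 to 5.42) and at 6.51 on the overlapping one (others 5.11 to 5.21). The Akt2 hinge probe was at −1.83 in NTL replicate 2 (others 0.23 to 0.65). Among further pathway genes, Vav1 was at 0.0144 in NTS replicate 2 (others 1.02 to 1.19), Btk at 0.71 in LFA replicate 1 (others 1.26 to 1.36), and Eif4ebp1 at 5.46 in SFA replicate 4 (others 5.05 to 5.09). NTS replicate 4, control replicate 2, and NTL replicate 2 had indices of upstream against downstream signal of −1.32, −1.44, and −1.42, each the lowest of its group, and the part of the index in these values was not tested.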

How the results depend on the processing

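Counts of the 14 member probes that passed moved by over 1.5 times as follows. With a filter on all arrays, which leaves out both Pik3cg probes and the Pik3cd stop codon probe by construction, the count was 1 in LFA against control (3 before), 2 in NTL against control (4), and 3 in NTL against NTS (5). With only the groups compared it was 1 in LFA against control and 0 in LFA against SFA (1), where limma gave Pik3r5 an adjusted p of 0.0741. Blocks lowered the NTL against NTS count to 1 for slide and 3 for scan day. The methods' test gave 1 in SFA against control (0). With the index covariate the count was 5 in LFA against control (4 higher, 1 lower) and 8 in NTL against control (6 higher, 2 lower), in a fit that also called more of all probes. The cause was not tested.

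With each array left out in turn, the count ran from 1 to 3 in LFA against control (1 without control replicate 2, control replicate 4, LFA replicate 2, or LFA replicate 4), from 3 to 4 in NTL against control, and from 4 to 5 in NTL against NTS (4 without control replicate 1 or 3, SFA replicate 1, 3, or 4, LFA replicate 1 or 4, NTL replicate 1, 3, or 4, or any NTS replicate). It was 1 throughout in LFA against SFA and 0 throughout in the other comparisons (SFA and NTS against control, LFA against NTL, SFA against NTS, and the difference of length effects). Leaving out control replicate 2 with NTS replicate 4 gave 2 in LFA and 4 in NTL against control.

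Equal replicate numbers showed no visible pairing: deviations of arrays with the same number correlated at −0.68 to 0.69, with 14 of 40 pairs over 0.1, and 4 of 20 arrays were closest to their own number. With the replicate block the count was 2 in LFA and 3 in NTL against control, 1 in LFA against SFA, and 4 in NTL against NTS, and Pik3cd in NTL was lost (adjusted p = 0.0526).

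Of 2207 values of the 8 genes under alternatives, 2173 kept their direction and their side of the threshold or moved by less than the spread, 26 lost the call, 2 gained one (Akt2 under the index covariate), 6 that did not pass moved by more than the spread (Akt1 and Akt2 with quantile normalization, Pik3r5 in the difference of length effects with the slide block), and 0 called values changed sign. Most of the 2207 values belong to comparisons that did not pass in the main fit. The 26 lost calls were 19 of Pik3cd, 6 of Pik3cg, and 1 of Pik3r5. Among values that did not pass, the sign differed in 33 for Pik3r1, 30 for Akt1, and 27 for Pik3ca. It differed in 16 each for Pik3cb and Akt2, 2 for Pik3r5, 1 for Pik3cg, and 0 for Pik3cd. The authors' table, with a single mean per group, gives no count. Without counts of molecules, a dim probe such as Pik3cg in control is limited by its signal over background.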
